A study of Mus musculus with 20 samples.

Results

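The genes described here are 10 genes of fatty acid use in muscle, Ppargc1a, Ppara, Fabp3, Cpt1b, Cpt2, Acadm, Acadl, Hadha, Pdk4 and Ucp3. They were chosen by name, with earlier results of these data known. Every noncontrol array probe whose gene name is one of these symbols was taken, which gave 17 probes of 55681 and 10 genes of 34797. All 17 probes were well above background on all 20 arrays, so no member was lost to a filter. Each gene is reported by its brightest probe, and the other 7 probes are given where they differ.

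RNA came from the diaphragm of female C57Bl/6 mice that were injected into the pleural cavity with 100 µL of fluid at 8 weeks of age and killed 12 weeks later. The 5 groups of 4 mice received the vehicle alone (control, bovine serum albumin in saline), short or long amosite asbestos at 25 µg (SFA and LFA), or short or long carbon nanotubes at 5 µg (NTS and NTL). SFA was made by grinding the long amosite of the same batch. Fibre doses were equal within a material and differed between the materials, so asbestos and nanotubes are set side by side and their sizes are not comparable dose for dose. Each of the 20 1-colour arrays holds RNA of 1 mouse, and both long-fibre groups are compared with the same 4 control arrays.

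Skeletal muscle at work draws much of its energy from fatty acids, and the diaphragm, which contracts without rest, is an oxidative muscle. Fatty acids are carried through the cytosol by a binding protein, enter mitochondria as carnitine esters and are shortened there by β-oxidation. The nuclear receptor PPARα and its coactivator PGC-1α, the products of Ppara and Ppargc1a, drive the transcription of many genes of this route, while Pdk4 restrains the use of glucose when fat is burned.

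A level below is the log2 of the processed signal minus the log2 of the same array's 75th percentile, so that 0 is the 75th percentile and each unit is a doubling. Levels of different genes come from different probes and are not compared with each other. A gene is called where the adjusted p of limma (Benjamini-Hochberg over 36971 tested probes) is below 0.05 and the difference is at least 2-fold. The arrays' 75th percentiles ranged from 292.2 to 990.9 signal units, and 53.0% to 68.1% of spots were well above background. All 17 markers of skeletal muscle were well above background on every array, as the tissue label says they should be. Liver markers varied widely within groups, with a mean level of -2.53 to 8.30 per array. The 5 arrays above 6 were SFA 2, LFA 1, LFA 3, NTS 3 and NTS 4, and results that rest on them are given with and without them.

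Of 3 members chosen here, 2 encode the coactivator and an enzyme that were lower after long fibres. The brightest probe of the last, Ucp3, did not follow those of the others. The promoters of these 3 genes are shown for that reason. Each is the stretch from 250 bases before to 50 after the start of the gene in RefSeq, and capitals mark a searched motif, TGACGT, the core of a cyclic AMP response element, for Ppargc1a and AGGTCA, a core site of nuclear receptors such as PPARα, for the others.
Ppargc1a promoter, chr5:51567676-51567975, minus strand, GRCm38.p6: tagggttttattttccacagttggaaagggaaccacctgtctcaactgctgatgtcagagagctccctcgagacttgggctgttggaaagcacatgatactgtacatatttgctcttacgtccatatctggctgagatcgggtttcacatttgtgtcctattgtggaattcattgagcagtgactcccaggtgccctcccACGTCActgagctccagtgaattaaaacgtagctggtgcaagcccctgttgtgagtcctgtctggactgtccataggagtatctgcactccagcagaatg
Acadm promoter, chr3:153944594-153944893, minus strand, GRCm38.p6: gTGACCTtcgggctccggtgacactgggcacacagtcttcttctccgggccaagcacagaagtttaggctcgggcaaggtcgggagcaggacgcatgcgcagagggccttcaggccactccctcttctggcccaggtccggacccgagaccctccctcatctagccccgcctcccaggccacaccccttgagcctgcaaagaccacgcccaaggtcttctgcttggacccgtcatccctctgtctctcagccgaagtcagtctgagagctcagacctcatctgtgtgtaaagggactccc
Ucp3 promoter, chr7:100472741-100473040, plus strand, GRCm38.p6: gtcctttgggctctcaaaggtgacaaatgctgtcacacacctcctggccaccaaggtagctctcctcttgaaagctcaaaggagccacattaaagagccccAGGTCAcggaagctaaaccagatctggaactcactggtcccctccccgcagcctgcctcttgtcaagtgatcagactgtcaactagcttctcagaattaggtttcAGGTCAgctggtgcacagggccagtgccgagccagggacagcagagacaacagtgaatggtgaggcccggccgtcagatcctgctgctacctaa

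Both strands were searched in the promoters of the 9 members that the table holds and of 32851 genes in all. TGACGT was in 2 of the 9 members, Ppargc1a and Fabp3, and in 7.51% of all promoters. AGGTCA was in Acadm and Ucp3, again 2 of 9, and in 16.3% of all promoters, and the longer AAGGTCA, which contains it, was in Acadm and in 4.72%. GGGCGG, a GC box, was in Ppara, Cpt2, Acadl and Hadha, and in 35.7% of all promoters. These are matches of letters in a short window and not measured binding.

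Both long-fibre groups had lower levels of most members than control. In LFA all 10 differences were below 0, against 66.2% of those of all tested probes. In this group 4 genes, Ppargc1a, Ppara, Cpt1b and Hadha, fell past the threshold, where 1.75% of all tested probes were called lower. In NTL 9 of 10 differences were below 0, against 65.2% of those of all tested probes. Here 5 genes, Ppargc1a, Ppara, Acadm, Hadha and Pdk4, fell past the threshold, against 3.16% of all tested probes. The median difference over the members was -0.98 in LFA and -1.11 in NTL on the log2 scale, beside -0.28 and -0.25 over all tested probes. Every NTL array lay below every control array for 9 members, and every LFA array did so for 6. For all tested probes those shares were 13.8% and 11.8%. The LFA calls were the less stable, since Hadha alone was called without control 1, control 2, LFA 2 or LFA 4 and 2 members were without LFA 1 or NTL 4, while 7 were called without LFA 3. The NTL calls numbered 4 to 6 without each array in turn. Counts over all tested probes without single arrays are not given beside these. The diaphragm was sampled in bulk, so fewer muscle cells and less RNA per muscle cell cannot be told apart. In the short-fibre groups no member and no other probe was called by limma, where 0% of all probes were called. At an unadjusted p below 0.05 there were 2 members in SFA and 1 in NTS, against 2.3% and 3.52% of all tested probes.

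**Figure D1:**
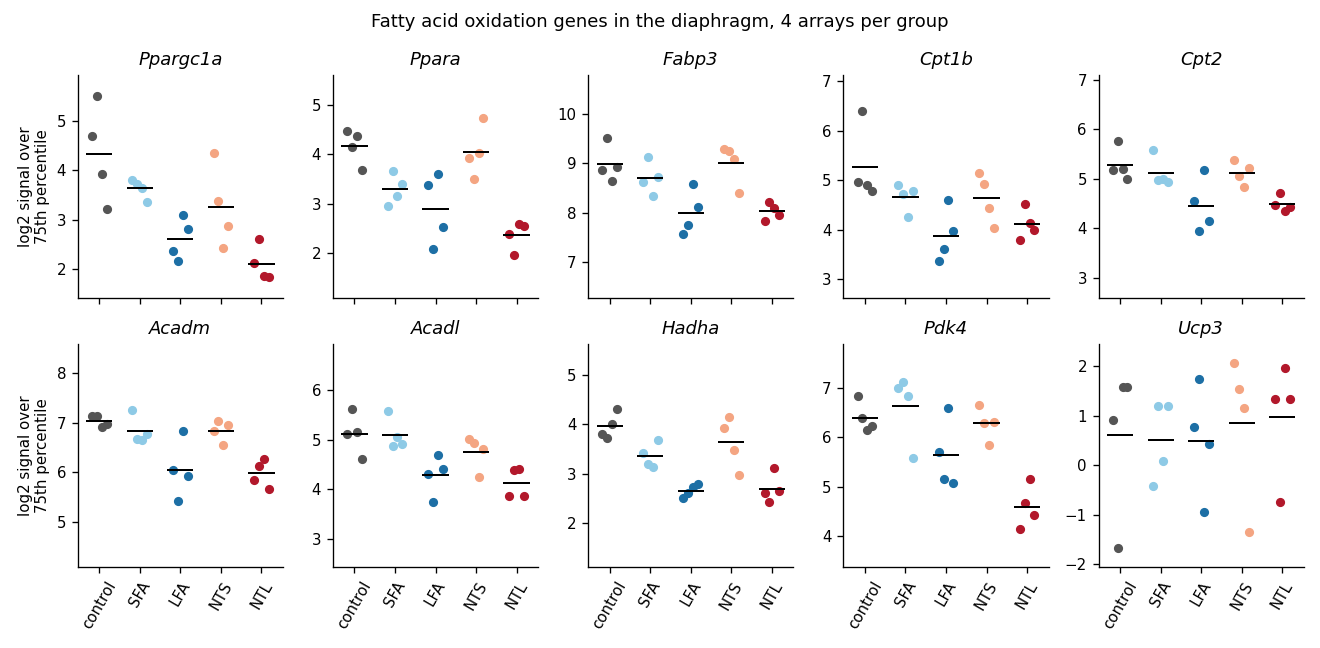
Level of each member on every array (vertical axes, log2 signal over the array's 75th percentile) in the 5 groups of 4 arrays, with a line at the group mean. Each gene is shown by its brightest probe. The axes of all panels span the same or nearly the same range, and the LFA and NTL points lie low for every gene but Ucp3.

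Ppargc1a, the transcriptional coactivator PGC-1α, differed most. Its probe lies at chr5:51848928-51848987 in NCBI37. The control arrays read 4.69, 5.51, 3.93 and 3.22, the LFA arrays 2.38, 2.17, 3.10 and 2.82, and the NTL arrays 2.12, 2.61, 1.86 and 1.85. Both long-fibre groups lay wholly below control, although the control arrays themselves spread over more than the gap. The level was 3.30-fold lower in LFA (log2 difference -1.72 ± 0.43 SE, limma adjusted p = 0.0332) and 4.68-fold lower in NTL (-2.23 ± 0.43 SE, adjusted p = 0.00443). A second probe 3′ of the first gave -1.70 ± 0.47 in LFA and -2.05 ± 0.47 in NTL, both called. The LFA call was lost without control 1, control 2, LFA 1, LFA 2 or LFA 4 (highest adjusted p 0.0955), and the NTL call held without each array in turn. SFA, at 3.37 to 3.81, and NTS, at 2.44 to 4.35, overlapped the control arrays, and their differences were -0.70 and -1.08 with limma adjusted p of 0.999 and 0.9999.

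Ppara, the nuclear receptor that senses fatty acids, read 4.46, 4.15, 4.37 and 3.69 in control. The LFA arrays read 3.38, 2.08, 3.60 and 2.52 and the NTL arrays 2.38, 1.97, 2.60 and 2.55, so that no array of either group reached the lowest control array. The level was 2.42-fold lower in LFA (-1.27 ± 0.33 SE, adjusted p = 0.0388) and 3.46-fold lower in NTL (-1.79 ± 0.33 SE, adjusted p = 0.00316). The LFA call was lost without any 1 of 7 arrays, control 1, 2 or 3, LFA 2 or 4, or NTL 1 or 4 (highest adjusted p 0.108), while the NTL call held without each array in turn. The SFA arrays, at 2.95, 3.67, 3.15 and 3.40, also lay just below the control arrays, with a difference of -0.88 ± 0.33 SE that did not pass (adjusted p = 0.999). The NTS arrays read 3.92, 3.50, 4.03 and 4.73, and the highest of them, NTS 4, had the highest liver score, 8.30. Liver also expresses Ppara, and within groups the level of this probe followed the liver score (r = 0.748 over 20 arrays, a description). Of its 2 other probes, both 3′ of the first, neither was called in LFA (-1.10 and -0.93, adjusted p = 0.0728 and 0.305) and 1 was called in NTL (-1.53 and -1.70, adjusted p = 0.0114 and 0.0633). With the liver score as a covariate, chosen after seeing the data, the differences of the brightest probe were -1.48 in LFA and -1.99 in NTL.

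Fabp3, the fatty acid binding protein of heart and muscle, read 8.65 to 9.50 in control, 7.56 to 8.57 in LFA and 7.82 to 8.22 in NTL. Both long-fibre groups lay below control without overlap, by -0.98 ± 0.28 SE (adjusted p = 0.0506) and -0.96 ± 0.28 SE (adjusted p = 0.0402), each just short of a 2-fold difference. Its second probe overlaps the first in sequence and gave -0.84 and -0.70.

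The carnitine shuttle moves long fatty acids into the mitochondrion. Cpt1b, the muscle form of the enzyme that makes the carnitine ester, read 4.96, 6.40, 4.90 and 4.78 in control, 3.36, 3.61, 4.60 and 3.98 in LFA, and 3.80, 4.52, 4.13 and 3.99 in NTL. Both groups lay below control, and control 2 stood far above the other control arrays. The difference was -1.38 ± 0.36 SE in LFA (2.59-fold lower, adjusted p = 0.0388) and -1.15 ± 0.36 SE in NTL (adjusted p = 0.0572). Without control 2 these were -0.998 (adjusted p = 0.0882) and -0.77 (adjusted p = 0.162), so both rest in part on that array. The LFA call was also lost without control 1, LFA 1, LFA 2, LFA 4 or NTL 4. Its other probe, 5′ of the first, is described with Ucp3. Cpt2, the enzyme of the inner membrane that releases the fatty acid again, read 5.00 to 5.75 in control, 3.94 to 5.18 in LFA and 4.35 to 4.71 in NTL, with differences of -0.83 ± 0.26 SE (adjusted p = 0.0752) and -0.79 ± 0.26 SE (adjusted p = 0.0732) that did not pass.

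Of the enzymes of β-oxidation, Hadha, the α subunit of the trifunctional protein, had the smallest standard error in the fit over all groups, although its control and NTL arrays spread more than those of Acadm. Its control arrays read 3.80, 3.72, 4.01 and 4.31, its LFA arrays 2.50, 2.61, 2.73 and 2.79, and its NTL arrays 2.62, 2.42, 3.11 and 2.65. The lowest control array stood clear of the highest long-fibre array, NTL 3. The level was 2.46-fold lower in LFA (-1.30 ± 0.25 SE, adjusted p = 0.00920) and 2.40-fold lower in NTL (-1.26 ± 0.25 SE, adjusted p = 0.00564). Among the 4 members called in LFA it was the only one that stayed called without each array in turn, with a highest adjusted p of 0.0348. The SFA arrays, at 3.43, 3.20, 3.13 and 3.68, lay between control and LFA and overlapped neither, with a difference from control of -0.60 ± 0.25 SE (unadjusted p = 0.0293 and adjusted p = 0.999, limma).

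Acadm and Acadl encode the dehydrogenases of medium and long fatty acids that take the first step of each cycle. Acadm read 7.14, 7.14, 6.90 and 6.98 in control, 6.04, 5.41, 6.83 and 5.93 in LFA, and 5.84, 6.12, 6.27 and 5.66 in NTL. The LFA arrays were wide, and LFA 3 came close to the lowest control array, while the NTL arrays were all well below it. The difference was -0.99 ± 0.26 SE in LFA (adjusted p = 0.0406, 1.98-fold lower and so not called) and -1.07 ± 0.26 SE in NTL (adjusted p = 0.0188, called, and lost without NTL 1 or NTL 4). Acadl read 4.61 to 5.61 in control, 3.74 to 4.70 in LFA and 3.86 to 4.403 in NTL, with differences of -0.84 ± 0.28 SE (adjusted p = 0.0848) and -0.99 ± 0.28 SE (adjusted p = 0.0350, 1.99-fold lower).

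Pdk4, the kinase that switches off pyruvate dehydrogenase, was the member with the largest difference between the long-fibre groups. Control arrays read 6.82, 6.38, 6.15 and 6.23, LFA arrays 5.71, 5.16, 6.60 and 5.08, and NTL arrays 4.14, 4.67, 5.16 and 4.43. All NTL arrays lay about a unit or more below the lowest control array, while LFA 3 reached into the control range. NTL was 3.48-fold lower than control (-1.80 ± 0.37 SE, adjusted p = 0.00651) and LFA differed by -0.76 ± 0.37 SE (adjusted p = 0.218). LFA minus NTL was 1.04 (95% interval 0.26 to 1.81), with an unadjusted p of 0.0117 and an adjusted p of 0.9999 by limma, so that a difference between the long-fibre groups was not established. LFA 1 and LFA 3, both with liver scores above 6, read higher than the other 2 LFA arrays for Pdk4, Ppara, Acadm and Cpt2. Ppargc1a, Fabp3, Cpt1b, Acadl, Hadha and Ucp3 did not separate these arrays in this way. LFA 1 and LFA 3 also had the lowest mean levels of macrophage markers in LFA, 3.96 and 3.55 against 4.62 and 4.53. Neither liver nor macrophage content was tested as a source. Without the 5 arrays of high liver score Pdk4 differed from control by -1.28 in LFA, which then had 2 arrays (adjusted p = 0.0814), and by -1.80 in NTL (adjusted p = 0.00408).

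Without those 5 arrays, a set chosen after seeing the data, 5 members were called in LFA and 6 in NTL, while calls lower over all tested probes went from 646 to 621 and from 1170 to 1900. In LFA Ppargc1a (-1.84, adjusted p = 0.0607) and Cpt1b (-1.47, adjusted p = 0.0603) were no longer called, and Cpt2 (-1.24, adjusted p = 0.0255), Acadm (-1.37, adjusted p = 0.0137) and Fabp3 (-1.04, adjusted p = 0.0449) were. Ppara (-1.86) and Hadha (-1.26) were called with and without the arrays. In NTL, which holds none of them, Cpt1b was also called (-1.15, adjusted p = 0.0419) and no call was lost. The part of liver RNA in these values was not tested.

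**Figure D2:**
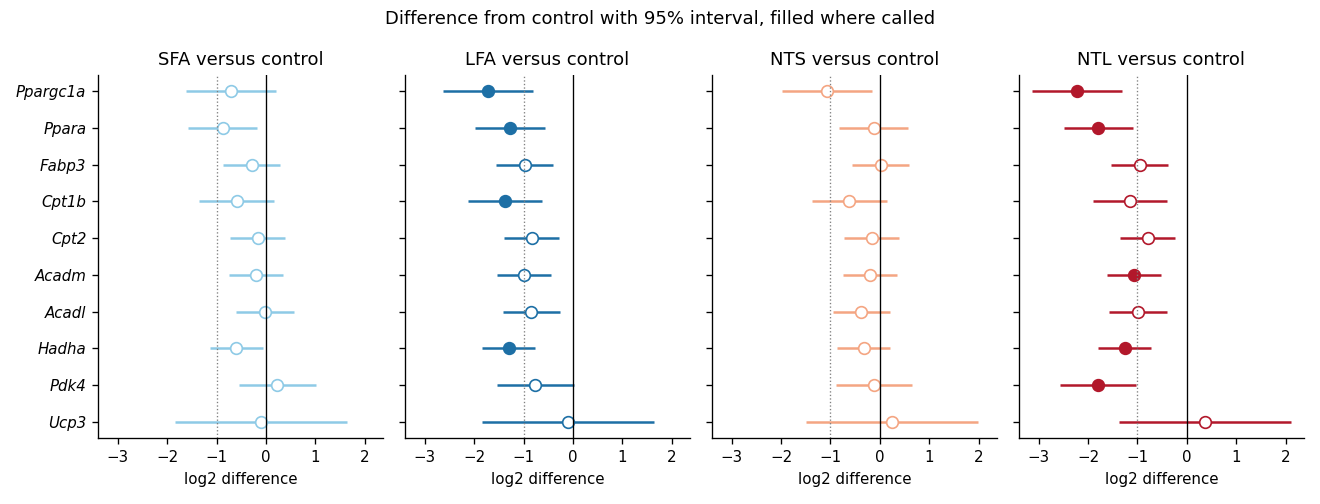
Difference from control (horizontal axes, log2) of each member in SFA, LFA, NTS and NTL, with its 95% interval, filled where called. Filled points are Ppargc1a, Ppara, Cpt1b and Hadha in LFA and Ppargc1a, Ppara, Acadm, Hadha and Pdk4 in NTL, with none in SFA or NTS.

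Ucp3, the mitochondrial uncoupling protein of muscle, did not follow the others by its brightest probe, and the probe matters here. That probe lies at base 745 of the transcript and read from -1.67 to 2.06, with a wide spread in every group. Its differences were -0.11 ± 0.83 SE in LFA and 0.37 ± 0.83 SE in NTL (adjusted p = 0.947 and 0.839). The other probe, at base 1797, gave -1.14 ± 0.52 SE in LFA and -1.35 ± 0.52 SE in NTL (adjusted p = 0.187 and 0.119). It read -1.75 to 0.66 in control and -2.36 to -1.22 in NTL, ranges that overlapped through control 2 alone. The less bright probe of Cpt2, at base 909, read from -3.70 to 1.29 and that of Cpt1b, at base 2564, from -2.55 to 3.87, both over far wider ranges than the brighter probes of the same genes. The 60-base sequence of the Ucp3 probe that lies towards the 5′ end is shown because the reading of this gene depends on it, and nothing in it is marked.
Ucp3 probe at base 745, chr7:107630399-107630458, plus strand, NCBI37: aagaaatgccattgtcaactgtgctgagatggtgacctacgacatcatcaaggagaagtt

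The spread of these probes followed a measure of the whole array. For 1919 transcripts with probes at least 1000 bases apart, members left out, the mean of the 5′ probe minus the 3′ probe was taken per array and centred over the arrays. This index ran from -0.66 in SFA 1 to 0.63 in NTS 3, and every group held at least 1 array below -0.4. Over the 20 arrays its Pearson r was 0.811 with the Ucp3 probe at base 745, 0.880 with the Cpt2 probe at base 909 and 0.917 with the Cpt1b probe at base 2564. For the brighter probes of Cpt1b and Cpt2 it was -0.020 and -0.176. With group means taken out these 2 were -0.372 and -0.674, so the brighter probes were not free of the index. Among the brightest probes of the other members this within-group r ran from -0.716 for Acadl to 0.882 for Ucp3, with 0.510 for Hadha. These correlations are descriptions, since all probes of an array share its RNA and labelling. With the index as a covariate, chosen after seeing the data, 8 members were called lower in LFA and 7 in NTL, while calls lower over all tested probes also went up, from 646 to 1554 and from 1170 to 2293. The Ucp3 probe at base 745 remained uncalled at 0.83 and 0.89.

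**Figure D3:**
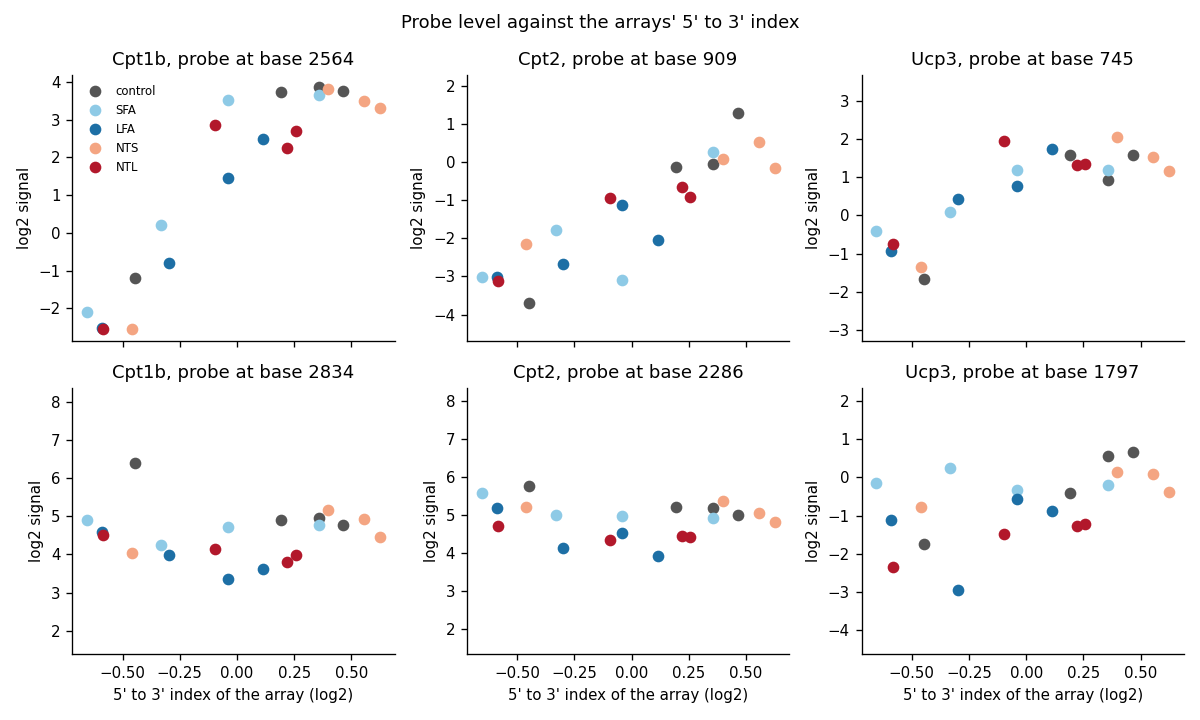
Level of both probes of Cpt1b, Cpt2 and Ucp3 (vertical axes, log2) against the 5′ to 3′ index of the array (horizontal axes, log2), 20 arrays coloured by group. The upper row, with r of 0.917, 0.880 and 0.811, climbs with the index in all groups, and the lower row of probes nearer the 3′ end is flatter.

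The comparison of long with short fibres of the same material leaves control out. No member was called in LFA versus SFA, where 0.133% of all tested probes were called lower. All 10 differences were below 0, against 64% of those of all tested probes, with a median of -0.74. They ran from -1.02 ± 0.43 SE for Ppargc1a to -0.01 ± 0.83 SE for Ucp3. Of the 10, 8 had an unadjusted p below 0.05, against 12.6% of all tested probes. In NTL versus NTS, 2 members fell past the threshold, against 2.66% of all tested probes. These were Ppara (3.18-fold lower, -1.67 ± 0.33 SE, adjusted p = 0.00410) and Pdk4 (3.20-fold lower, -1.68 ± 0.37 SE, adjusted p = 0.00836). Acadm (-0.86), Hadha (-0.93) and Fabp3 (-0.98) had adjusted p of 0.0475, 0.0285 and 0.0340 with less than 2-fold differences, so that 5 members had an adjusted p below 0.05, against 3.48% of all tested probes with lower levels. Without NTS 3 and NTS 4, the arrays with the highest liver scores, 5 members were called, and calls lower over all tested probes went from 982 to 2914. Of the 3 slides used, 1 held arrays of both NTL and NTS, with 1 NTL array on it. With slide as a block, Ppara (-1.47, limma adjusted p = 0.0789) and Pdk4 (-1.48, adjusted p = 0.106) were not called in NTL versus NTS. Whether length acted differently in asbestos and in nanotubes was tested as an interaction, and no member and no other probe passed (adjusted p = 0.9998 for every member). At an unadjusted p below 0.05 there was 1 member, Ppara, at 1.28 ± 0.47 SE, against 3.46% of all tested probes. In LFA versus NTL no member and no other probe was called by limma, 1 member, Pdk4, had an unadjusted p below 0.05 against 1.54% of all tested probes, 5 differences were above and 5 below 0, and the widest interval among members other than Ucp3 was that of Ppargc1a, -0.40 to 1.42. An F test over the 5 groups passed for 6 members, Ppargc1a, Ppara, Pdk4, Acadm, Hadha and Fabp3, where 6.85% of all tested probes passed.

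The arrays were run on 3 slides, each scanned at its own time, and groups were spread unevenly over them. Slides 1 and 2 held 2 NTS arrays each, while 1 NTL array was on slide 2 and 3 were on slide 3. Length and slide therefore cannot be well told apart in NTL versus NTS. Within slides the median member difference was -0.53, -1.08 and -1.35 for LFA and -1.43 and -0.91 for NTL, with no NTL array on the remaining slide. For SFA it was -0.26 and -0.31 and for NTS -0.21 and -0.23. Each of these values sets 1 to 3 fibre arrays against 1 or 2 control arrays, and -1.35 for LFA sets 1 against 1. With slide as a block, Hadha alone was called in LFA (-1.28, adjusted p = 0.0225). In NTL Ppargc1a, Ppara, Hadha and Pdk4 were called (-2.15, -1.67, -1.30 and -1.65), and in NTL versus NTS no member was. Calls lower over all tested probes went down with the block as well, from 646 to 312 in LFA, from 1170 to 476 in NTL and from 982 to 93 in NTL versus NTS.

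The skeletal muscle markers were low in the same groups as the members. All 17 skeletal muscle markers, which include actin, myosin heavy chains, troponins and creatine kinase, had differences below 0 in LFA and in NTL, with medians of -1.03 and -1.09. For all tested probes the shares below 0 were 66.2% and 65.2%. Of the 17 markers 3 were called lower in LFA and 4 in NTL, against 1.75% and 3.16% of all tested probes. All 17 were also below 0 in LFA versus SFA and in NTL versus NTS, with medians of -0.66 and -0.86. In both comparisons 64% of all tested probes were below 0. The mean level of the 17 was 7.18 to 7.46 on the control arrays, 6.06 to 6.45 on the LFA arrays and 5.84 to 6.20 on the NTL arrays. It was 6.56 to 7.23 in SFA and 6.27 to 7.85 in NTS. The mean of the 10 members minus this mean was -2.19 ± 0.26 (SD, n = 4) in control, -2.11 ± 0.32 in LFA and -2.09 ± 0.15 in NTL, and the groups overlapped.

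Scaled in this way, no member was called in any comparison. The median difference was 0.11 in LFA and 0.15 in NTL, where the same scaling moved the median of all tested probes to 0.81 and 1.01. Ppargc1a was lowest, at -0.63 ± 0.46 SE in LFA and -0.96 ± 0.46 SE in NTL (adjusted p = 0.308 and 0.0979). Ppara stood at -0.18 and -0.53 and Pdk4 at 0.33 and -0.54, none past the threshold. Hadha stood at -0.21 ± 0.23 SE and 0.0022 ± 0.23 SE. Over the 20 arrays its level had an r of 0.947 with the muscle mean, the highest among the members. With group means taken out, r was 0.846 for Hadha and ran from -0.356 for Ppara to 0.556 for Ucp3 among the others. The muscle mean itself varied little within most groups, with an SD of 0.12 in control, 0.27 in SFA, 0.16 in LFA and 0.16 in NTL. In NTS it was 0.72. With so little spread these r values cannot decide how closely the members follow the muscle mean. The lower levels per array are measurements of the whole tissue, and a lower level per unit of muscle transcript was not established for any of the 10 genes.

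**Figure D4:**
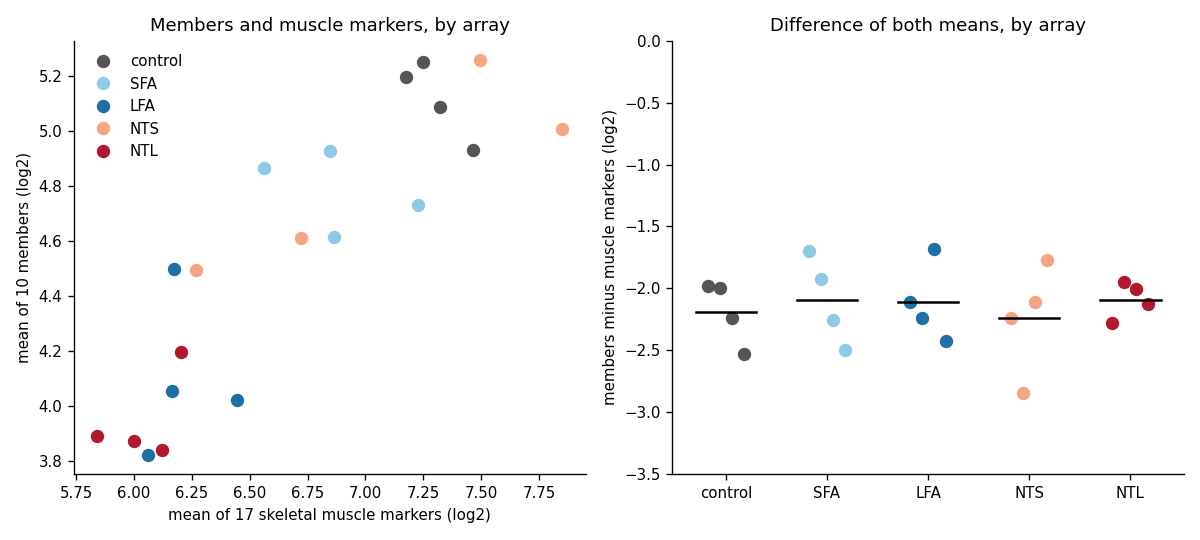
Left, mean of the 10 members against the mean of 17 skeletal muscle markers on each array (both log2). Right, the first minus the second by group with a line at the mean. The LFA and NTL arrays lie at the lower left, and in the right panel all 5 group means lie between -2.24 and -2.09.

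Markers of macrophages and matrix cells were mostly higher in the same groups, and those of fat cells and erythrocytes lower. Over all tested probes 2.21% in LFA and 3.64% in NTL were called higher, and 1.75% and 3.16% lower. Of 10 macrophage markers 7 rose in LFA and 8 in NTL, and their mean level was 2.44 to 2.73 in control, 3.55 to 4.62 in LFA and 4.41 to 4.67 in NTL. Of 6 fibroblast and matrix markers 1 rose in LFA and 4 in NTL, with a mean level of 5.32 to 5.56 in control, 5.70 to 6.76 in LFA and 6.15 to 6.96 in NTL. All 8 adipocyte markers had differences below 0, of which 1 fell in LFA and 4 in NTL, with a mean level of 4.16 to 4.74 in control, 2.57 to 4.16 in LFA and 2.28 to 3.34 in NTL. The 3 erythrocyte markers, 2 globins and Alas2, were also below 0 in both groups (medians -0.84 and -1.13), with none called in LFA and 1 in NTL, and their mean level was 7.43 to 8.46 in control, 5.66 to 7.73 in LFA and 6.09 to 6.90 in NTL. No marker of heart muscle, liver, mesothelium, T cells or B cells was called in either group. The liver markers nevertheless had medians of 2.64 in LFA and 2.54 in NTL, with wide spreads. Their mean level was 0.30 ± 2.59 (SD, n = 4) in control, 2.48 ± 4.05 in SFA and 2.68 ± 5.06 in LFA. In NTS it was 3.67 ± 5.37 and in NTL 2.64 ± 1.87. The part of these cells in the member levels was not tested.

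A list of 58 other genes of the same route was all present and tested. None was called higher in either group, 3 fell in LFA and 13 in NTL, beside the 1.75% and 3.16% of all tested probes called lower. In each group 49 differences were below 0, against 66.2% and 65.2% of those of all tested probes. The medians of the 58 were -0.71 and -0.88, beside -0.28 and -0.25 over all tested probes. The 16 genes of β-oxidation were below 0 without exception in both groups, with 1 called in LFA and 5 in NTL and medians of -0.84 and -1.04. Eci1, an isomerase for unsaturated fatty acids, fell by 1.15 in LFA and by 1.44 in NTL (adjusted p = 0.0182 and 0.00217). Acaa2, the thiolase, and Ech1, another isomerase, fell by 1.08 and 1.12 in NTL. Echs1, the hydratase, and Hadhb, the partner of Hadha, stood at -0.95 and -0.85 in NTL, below 2-fold.

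Among 28 regulators and targets, 2 were called lower in LFA and 8 in NTL, against 1.75% and 3.16% of all tested probes. Pnpla2, the lipase that frees fatty acids from stored fat, fell by 1.17 in LFA and by 1.21 in NTL (adjusted p = 0.0113 and 0.00450). Esrra, a nuclear receptor that works with PGC-1α, fell by 1.06 and by 1.05. Rxra, the partner of PPARα, and Pparg, the receptor of fat cells, fell in NTL alone among the long-fibre groups by this threshold, by 1.01 and 1.19, with -0.67 and -0.81 in LFA. The difference between LFA and NTL did not pass for any probe. None of the 6 genes of uptake and activation, the 5 other genes of the carnitine shuttle or the 3 of ketone use was called in either group. The shuttle genes were split, with 3 of 5 below 0 in both groups.

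**Figure D5:**
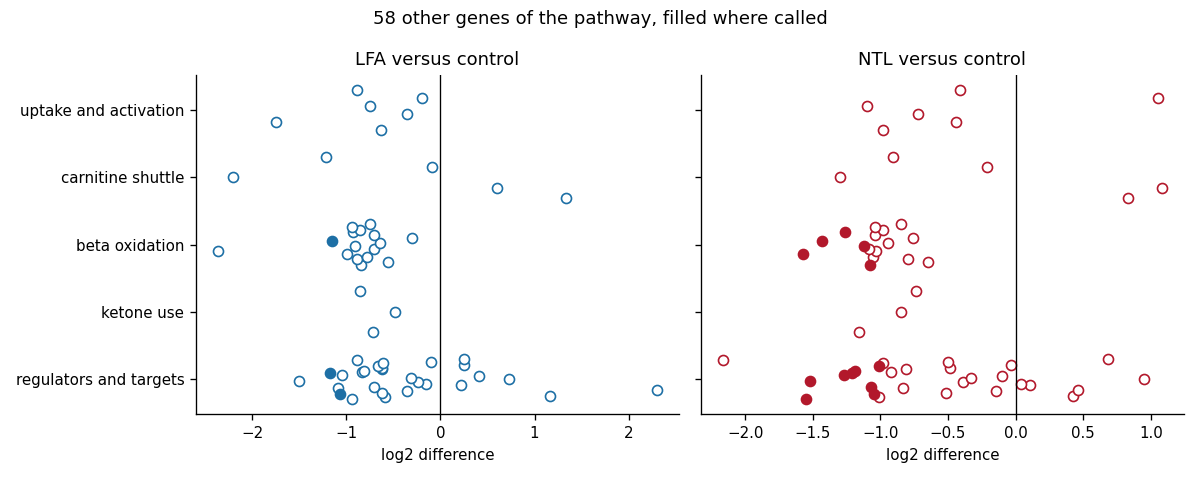
Differences from control (horizontal axes, log2) of 58 other pathway genes in LFA and NTL, 1 point per gene in 5 lists, filled where called. The 16 genes of β-oxidation all lie left of 0, and the carnitine shuttle and the regulators lie on both sides.

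The members followed each other across arrays. Of their 45 pairs, 36 had a Pearson r above 0.5 over the 20 arrays, with a median of 0.699 and a range of -0.449 to 0.916. With group means taken out the median was 0.368. Genes whose pattern was most like the mean of the standardised members, among 25537 genes and over 20 arrays, were Eci1 (r = 0.956), Magix (0.954), Cdhr3 (0.952) and Crym (0.945). These values describe arrays that share group differences and tissue makeup.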

How the data were processed

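Total diaphragm RNA was labelled with Cy3 and hybridised to Agilent 60K mouse arrays, and Feature Extraction 10.7.3.1 was used per the submitters' processing notes. The deposited scanner output holds processed signal intensity per spot, background-corrected by that software and not scaled between arrays. The authors also deposited a normalized log2 table with 1 pooled value per group, made in GeneSpring, which gives differences but no test. Here log2 intensity was taken minus the array's 75th percentile, outlier spots were left out and spots of a probe averaged. Probes well above background on at least 4 arrays were kept (36971 of 55681). limma 3.58.1 in R 4.3.3 fitted all 5 groups together, tested on simulated data. In a simulated LFA versus control, 50 probes were changed at each size. At log2 sizes of 1, 1.5, 2 and 3 the fit recovered 1, 15, 23 and 43 of them, so an uncalled gene may still differ. The members, the pathway and marker lists and the named genes (all members, the pathway genes with the smallest F test p, and the 5 most similar genes, of which 1 is not reported here) were chosen with earlier results of these data known. Arrays are separate mice, and their number limits the precision. Probe coordinates are those of the files (NCBI37), and promoters are from RefSeq (GRCm38.p6). Alternatives were other normalizations, filters, probes, blocks and arrays.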

Additional observations from a re-analysis of the deposited data

Results flagged for a closer look

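In 100 sets of 4 arrays, 10 members, 8 pathway genes and 2 means in each of 5 groups, 7 held an array whose gap to the nearest, as a share of the group's range, passed the 95% critical value of Dixon's test, where chance flags about 1 in 20. Cpt1b read 6.40 in control 2, with the other control arrays at 4.78 to 4.96. Cpt2 read 5.57 in SFA 1, against 4.93 to 5.00. The mean of the members was 4.19 in NTL 3, against 3.84 to 3.89. Of the pathway genes, Pnpla2 read 5.55 in NTL 3 (others 4.92 to 5.03), Echs1 4.33 in LFA 2 (others 5.22 to 5.29), Hadhb 7.44 in SFA 1 (others 7.08 to 7.14) and Acaa2 8.32 in control 2 (others 7.78 to 7.81). Control 2 and SFA 1 also had low 5′ to 3′ indices, -0.45 and -0.66, while the flagged NTL 3 and LFA 2 had -0.10 and 0.11. LFA 3, NTL 2 and NTS 4, at -0.59, -0.58 and -0.46, were low as well and held no flagged value. The effect of length did not pass as different between the materials for any member.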

How the results depend on the processing

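Under 33 settings no member was called in SFA, NTS or LFA versus NTL, nor under 32 in the difference in length effect. In LFA 4 members were called, against 1 with no filter, 1 with slide as a block, 1 with the compared groups alone, 0 relative to the muscle markers and 8 with the 5′ to 3′ index as a covariate. Calls lower over all probes moved too, in LFA from 646 to 344 with no filter and in NTL from 1170 to 598 after quantile normalization. Those with the slide block, the index and without the 5 arrays are given above. The other counts here are of members alone, with no share over all probes beside them. Leaving out 1 array gave 1 to 7 (1 without control 1, control 2, LFA 2 or LFA 4, 2 without LFA 1 or NTL 4, and 7 without LFA 3). The calls of Ppargc1a, Ppara and Cpt1b were lost without 5, 7 and 6 of the 20 arrays, while that of Hadha held without each. In NTL 5 were called, against 3 after quantile normalization and 0 relative to muscle, with 4 to 6 on leaving out 1 array. In NTL versus NTS 2 were called, against 0 with the slide block, 0 relative to muscle and 5 each with the index, without NTS 3 and NTS 4 and without the 5 arrays of high liver score, with 2 to 4 on leaving out 1 array (4 without NTS 4). In LFA versus SFA leaving out 1 array gave 0 to 1 (1 without LFA 3). The methods' test, allowing unequal variances, passed for 2 members over the 5 groups, Ppara and Hadha, against 6. The covariates and the set without the 5 arrays were chosen after seeing the data.

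The median member difference in LFA was -0.62 after quantile normalization, 0.11 relative to muscle and -1.27 without the 5 arrays, and in NTL -0.67 and 0.15 by the same first 2 settings. Relative to muscle it was 0.18 in SFA, -0.077 in LFA versus SFA and 0.14 in NTL versus NTS, where quantile gave -0.34. In LFA versus SFA it was -0.99 without the 5 arrays. Leaving out 1 array gave -1.21 to -0.84 in LFA, -1.18 to -0.93 in NTL and -0.99 to -0.78 in NTL versus NTS. The muscle scaling turned the sign of Cpt2 (0.26), Pdk4 (0.33), Ucp3 (0.99), Acadm (0.10), Acadl (0.25) and Fabp3 (0.11) in LFA, of Cpt1b (0.11), Cpt2 (0.47), Acadm (0.20), Acadl (0.27), Hadha (0.0022) and Fabp3 (0.31) in NTL, and of Cpt1b (0.51), Cpt2 (0.42), Acadm (0.18), Acadl (0.42), Hadha (0.11) and Fabp3 (0.065) in NTL versus NTS. Ucp3 turned sign in LFA with the slide block (0.082), the liver covariate (0.083), the index (0.83) and without the 5 arrays (0.48), in NTL with the gene average (-0.49) and the slide block (-0.061), and in NTL versus NTS with these 2 (-0.62 and -0.61) and without NTS 3 and NTS 4 or the 5 arrays (-0.83 each). Leaving out 1 array moved Ucp3 from -0.87 to 0.37, from -0.39 to 0.94 and from -0.61 to 0.69 in the 3 comparisons. The cause was not tested.

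With replicate number as a block, 3 members were called in LFA (Ppara was lost), 5 in NTL and 2 in NTL versus NTS. Over 40 same-number pairs r ran from -0.675 to 0.689 (median -0.090), and 4 of 20 arrays were closest to one of their own number. These values do not show that the number pairs the samples, and they cannot exclude a weak pairing. Over all probes, 646 of 1462 LFA calls and 1170 of 2514 NTL calls were lower, against 312 of 1295 and 598 of 2158 after quantile normalization. The authors' pooled table allowed no count. All members were well above background, and there were 4 arrays a group. What limits the member results was not tested.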
